A study of Mus musculus with 40 samples.

Results

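The loci of 10 focal adhesion genes were examined in an enhancer reporter screen of mouse embryonic stem cells and their blood-forming progeny. The genes were Pxn, Vcl, Zyx, Tln1, Itga5, Itgb1, Itgav, Ptk2, Actn1 and Actn4. A fragment belonged to a locus when its centre lay in the RefSeq gene body on mm10 or within 25 kb of it. By this rule 1274 of 458486 listed fragments belonged to the 10 loci, or 989 of 354627 different fragments. Overlapping fragments of all libraries were merged into regions, which gave 113 regions at these loci of 75060 in the genome, and 19 of the 113 held at least 20 fragments. The rule used position alone. It took no account of the YFP level, and it also took in fragments that lie in or near other genes.

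In the screen, open-chromatin fragments from 5 stages were cloned in front of the HSP68 minimal promoter and a Venus-YFP reporter, and each construct was recombined into the Hprt locus of HM-1 cells, an embryonic stem cell line of the 129/ola strain whose Hprt gene is not functional until the reporter repairs it. All libraries shared this line and this insertion site. The stages, reached by differentiation in serum, were undifferentiated embryonic stem cells (ES), FLK1+ hemangioblast-like cells from embryoid bodies (HB), and 3 populations sorted from blast culture: hemogenic endothelium 1 (HE1; KIT+ TIE2+ CD41-), hemogenic endothelium 2 (HE2; KIT+ TIE2+ CD41+) and hematopoietic progenitors (HP; KIT+ TIE2- CD41+). At each stage cells were sorted into a Negative, Low, Medium or High YFP gate, where the Negative gate had been set with a line that carried the minimal promoter but no fragment. With 2 replicates this gave 40 libraries, and 1 stage of 1 replicate is called a sort here. Fragments of the Low, Medium or High gates of a sort were counted once and are called positive, and those of its Negative gate are called negative. The values are unique DNA fragments and hold no RNA, so the cell types could not be checked against marker genes here.

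Focal adhesions are the sites at which a cell grips its surroundings. Integrins, each an alpha and a beta chain, bind the matrix outside the cell, and talin, vinculin and alpha-actinin tie their tails to actin filaments inside it. Paxillin is a scaffold on which these proteins meet kinases such as focal adhesion kinase. Cells of the hemogenic endothelium adhere to the culture surface, and the progenitors that arise from them float off.

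Libraries of replicate 1 held 4869 to 51146 fragments and those of replicate 2 held 654 to 31915, so that 1147 of the 1274 fragments at the 10 loci came from replicate 1 and 127 from replicate 2. Levels are given as fragments at a locus per 10000 positive, or negative, fragments of the same sort. Counts in single regions are not scaled to the size of the sort unless given per 10000. A count of 0 allows up to 3 fragments, which was 0.294 to 1.08 per 10000 positive fragments in the sorts of replicate 1 and 0.862 to 8.64 in those of replicate 2. These limits cover counting error only, since PCR fragments without molecular identifiers are not independent molecules. HE1 replicate 1 was the largest sort and gave 40.3% of the fragments at the 10 loci, against 32.1% of all fragments. In that sort 104 of the 156 negative fragments at the loci (66.7%) were listed in the Medium gate too, and over all loci the share was 69.8%. Without that sort 19 of 125 negative fragments (15.2%) were also positive in the same sort, against 12.9% over the genome.

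The sequences shown first are the reference sequences (GRCm38, the assembly of mm10, + strand, 5′ to 3′) at the most covered stretch of 6 regions with many fragments, in the order in which they are discussed. They were chosen because the positive and negative fragments described further on overlap them. Where a transcript model had an exon in the window, it was moved to the nearest part without one. Capitals mark matches to short consensus motifs. Both strands were searched for the letters AGATAA, as recognised by GATA factors, and CCGGAA, as recognised by ETS factors. The AP-1 family was represented by TGANTCA, the TEAD family by GGAATG and the Notch partner RBPJ by TGGGAA. The runt-domain factors were represented by TGTGGT, the SOX family by ACAANGG and CTCF by its consensus. The first sequence is chr5:115489669-115489968 at the Pxn locus, the second chr5:115491748-115491969 beside it, the third chr5:115530074-115530373 in a Pxn intron, the fourth chr5:115573090-115573389 in a Gcn1 intron downstream of Pxn, the fifth chr15:103323584-103323883 in a Zfp385a intron of the Itga5 locus, and the sixth chr7:28911677-28911976 in an Actn4 intron.
Pxn, upstream region: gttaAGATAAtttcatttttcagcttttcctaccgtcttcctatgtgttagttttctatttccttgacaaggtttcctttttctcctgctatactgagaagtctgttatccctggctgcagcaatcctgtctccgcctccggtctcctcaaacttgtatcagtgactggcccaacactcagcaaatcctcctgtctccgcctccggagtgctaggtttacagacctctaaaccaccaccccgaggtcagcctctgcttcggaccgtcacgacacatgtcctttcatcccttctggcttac
Pxn, region at the predicted start: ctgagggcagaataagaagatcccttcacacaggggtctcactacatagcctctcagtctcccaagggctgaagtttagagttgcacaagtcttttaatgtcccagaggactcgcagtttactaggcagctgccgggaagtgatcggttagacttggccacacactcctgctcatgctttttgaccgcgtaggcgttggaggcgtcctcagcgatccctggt
Pxn, intron region: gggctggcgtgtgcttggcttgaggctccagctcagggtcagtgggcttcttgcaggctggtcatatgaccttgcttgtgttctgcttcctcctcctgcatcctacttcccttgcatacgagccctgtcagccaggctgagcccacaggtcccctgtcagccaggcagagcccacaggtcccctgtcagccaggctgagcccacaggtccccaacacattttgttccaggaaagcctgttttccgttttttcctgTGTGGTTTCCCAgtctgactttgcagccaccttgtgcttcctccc
Pxn, Gcn1 intron region: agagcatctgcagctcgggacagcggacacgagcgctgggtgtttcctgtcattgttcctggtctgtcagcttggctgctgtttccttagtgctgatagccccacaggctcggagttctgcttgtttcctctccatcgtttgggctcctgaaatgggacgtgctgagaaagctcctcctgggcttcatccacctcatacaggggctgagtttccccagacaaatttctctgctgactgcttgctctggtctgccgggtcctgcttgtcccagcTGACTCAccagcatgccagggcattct
Itga5, Zfp385a intron region: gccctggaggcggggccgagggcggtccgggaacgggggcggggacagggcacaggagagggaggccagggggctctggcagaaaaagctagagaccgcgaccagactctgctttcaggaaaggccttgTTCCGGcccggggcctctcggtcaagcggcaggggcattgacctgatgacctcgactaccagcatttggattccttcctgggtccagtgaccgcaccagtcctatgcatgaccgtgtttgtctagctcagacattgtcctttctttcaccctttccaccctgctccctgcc
Actn4, intron region: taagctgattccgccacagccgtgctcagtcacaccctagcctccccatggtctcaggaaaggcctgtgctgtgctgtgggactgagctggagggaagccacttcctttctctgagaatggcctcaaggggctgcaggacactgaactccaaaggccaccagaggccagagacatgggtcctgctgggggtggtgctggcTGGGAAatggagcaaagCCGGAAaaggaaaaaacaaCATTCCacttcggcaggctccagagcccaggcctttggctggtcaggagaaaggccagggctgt
The upstream Pxn sequence held a GATA match, and the one at the predicted start none of the motifs. Both of these and the Itga5 sequence had been moved off an exon. Before the move, the upstream Pxn window, centred on the most covered point, held 2 GATA matches. The centred window at the predicted start held 1 AP-1 and 2 ETS matches, and that at Itga5 held 1 ETS match. In the Pxn intron sequence a RUNX and an RBPJ match lay next to each other without overlap. The Gcn1 intron sequence held an AP-1 match, the Itga5 sequence an ETS match, and the Actn4 sequence an RBPJ, an ETS and a TEAD match. In windows of 300 bp centred on the most covered point, RBPJ letters were found in 9 of the 19 larger regions of the 10 loci and in 29.0% of 5742 regions of the genome with at least 20 fragments. For AP-1 the numbers were 5 of 19 and 18.1%, for GATA 6 of 19 and 16.2%, for ETS 4 of 19 and 9.14%, for TEAD 3 of 19 and 18.5%, for SOX 4 of 19 and 18.3%, for RUNX 2 of 19 and 22.4%, and for CTCF 1 of 19 and 14.9%. Mean GC content of these windows was 57.2% in the 19 regions and 55.9% in the 5742. The only matches of different motifs to overlap in the windows of the larger regions were a SOX and an RBPJ match in Vcl. The ETS letters also overlapped their own match on the other strand in the window centred at the predicted Pxn start. Such letter matches are a description of sequence and not of binding.

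Pxn encodes paxillin. Its locus (gene body chr5:115491970-115555987) was the richest of the 10, with 432 fragments in 20 regions, and held the 30th most fragments among 49939 RefSeq gene loci. In replicate 1 the locus took 13.3 of 10000 positive fragments at ES, and the values from HB to HP were 10.8, 11.1, 11.0 and 10.6. In replicate 2, again from ES to HP, they were 4.43, 1.64, 1.44, 2.88 and 3.84, from 4, 2, 5, 1 and 2 fragments. All 5 values of replicate 1 thus lay above all 5 of replicate 2, while within replicate 1 the stages lay close together. The stages accounted for 4.93% of the variance between the 10 sorts, and the exact permutation test of stage differences gave p = 0.894 (adjusted p = 1 over 14082 loci with at least 20 fragments). That share leaves the offset between the replicates in the variance. With values centred in each replicate the stages accounted for 78.7%, with ES highest in both replicates, and the exact permutation test with the replicate as a block gave p = 0.167 (adjusted p = 1).

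**Figure D1:**
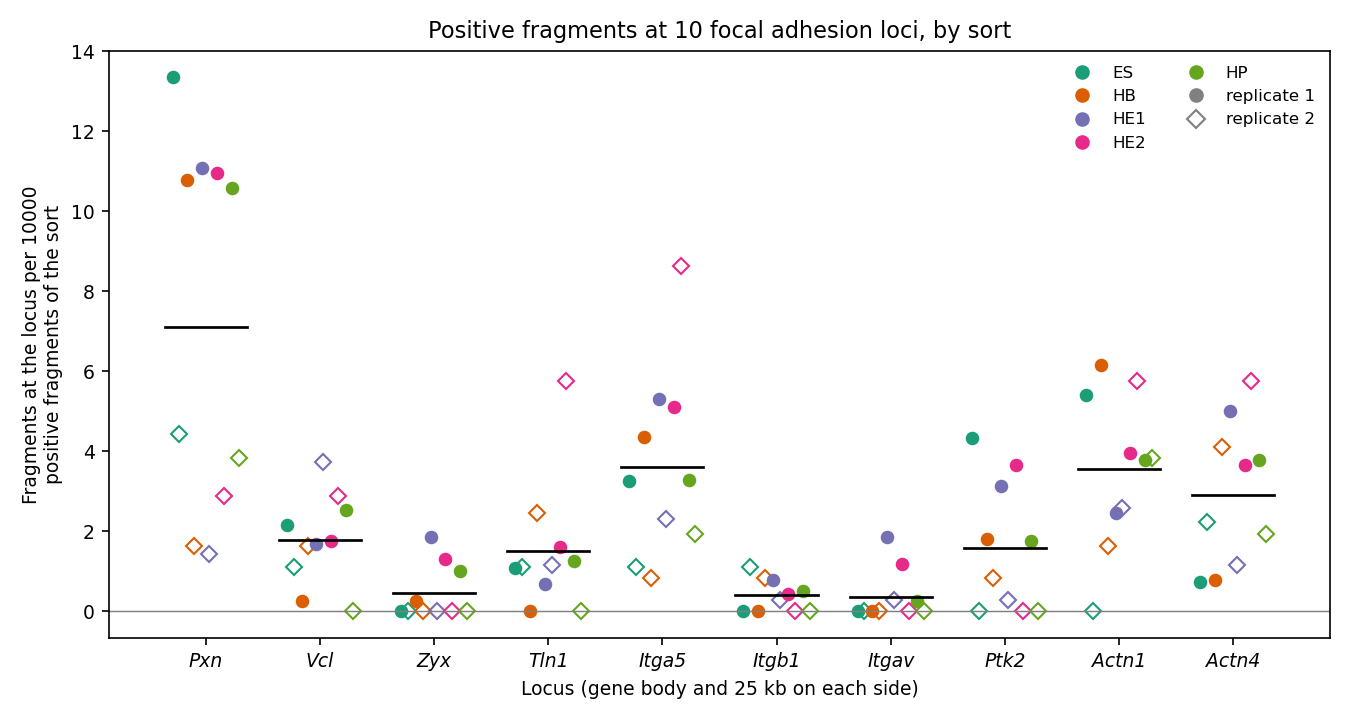
Positive fragments at each locus per 10000 positive fragments of the sort (y axis), with 10 sorts for each of the 10 loci on the x axis. Colours stand for stages, filled circles for replicate 1, open diamonds for replicate 2 and black lines for the mean of the 10 sorts. At Pxn the filled circles lie between 10.6 and 13.3 and the diamonds between 1.44 and 4.43, whereas at Itgav and Zyx most points are at 0.

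The fragments at Pxn were concentrated. Of the 432, 369 (85.4%) lay in 5 regions with at least 20 fragments, and the region with most (chr5:115489456-115490506) held 153 of them (35.4%). It is centred at -16620 bp from the curated start of Pxn, outside curated genes, where the nearest curated start is that of the sirtuin gene Sirt4. Predicted models place exons of Sirt4 and the U4-type snRNA genes Gm24265 and Gm24407 in it. With these models Sirt4, on the - strand, starts at position 115490264, inside the region, so the region covers a predicted start of Sirt4. Since snRNA genes have many near-identical copies, fragments there could be shared with other copies, although the authors describe a filter against reads that map to several places. This region was the only one of the 19 larger regions with a positive fragment in all 10 sorts, as 60 of the 5742 regions of that size in the genome were. Its positive fragments numbered 19, 22, 33, 26 and 10 from ES to HP in replicate 1 and 2, 1, 2, 1 and 1 in replicate 2. Per 10000 positive fragments of the sort, this region took 6.9, 5.6, 3.2, 3.8 and 2.5 in replicate 1, highest at ES. Its negative fragments numbered 5, 1, 15, 2 and 5 in replicate 1 and 1, 1, 2, 0 and 1 in replicate 2. In all, 117 positive fragments were observed against 116 expected from the sizes of the gates. The ratio was 1.00 (Cochran-Mantel-Haenszel test on fragments, n = 10 sorts as strata, p = 0.998, adjusted p = 1). This test treats fragments as independent.

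The next region, at -14674 bp (chr5:115491748-115492345), lay beside it and had another distribution over the stages. It covers the start of a predicted Pxn model and the pseudogene Gm13836. Its positive fragments in replicate 1 were 2, 0, 20, 13 and 14 from ES to HP, and replicate 2 had none. Per 10000 positive fragments of the sort these were 0.72, 0, 1.96, 1.90 and 3.53, highest at HP. The region 23548 bp downstream of the curated start, in a Pxn intron (chr5:115529846-115530745), had 17, 5 and 4 positive fragments at HE1, HE2 and HP of replicate 1 and no fragment of either kind at ES or HB or in replicate 2. The region 66564 bp downstream, in an intron of Gcn1, a gene for a translational regulator (chr5:115572955-115573609), had 0 at ES and 12, 24, 15 and 7 from HB to HP in replicate 1. A second Pxn intron region, 32168 bp downstream (chr5:115538465-115538963), had positive fragments at every stage of replicate 1 (8, 3, 8, 4 and 2) and 1 at HP of replicate 2. The upstream and the second intron region were thus represented from ES onwards, and the other 3 mostly or wholly from HB or HE1 onwards. The methods describe a filter for open chromatin of the same stage. Whether it had been applied to these lists is not stated, so that a lack of reporter activity and closed chromatin at a stage cannot be told apart.

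**Figure D2:**
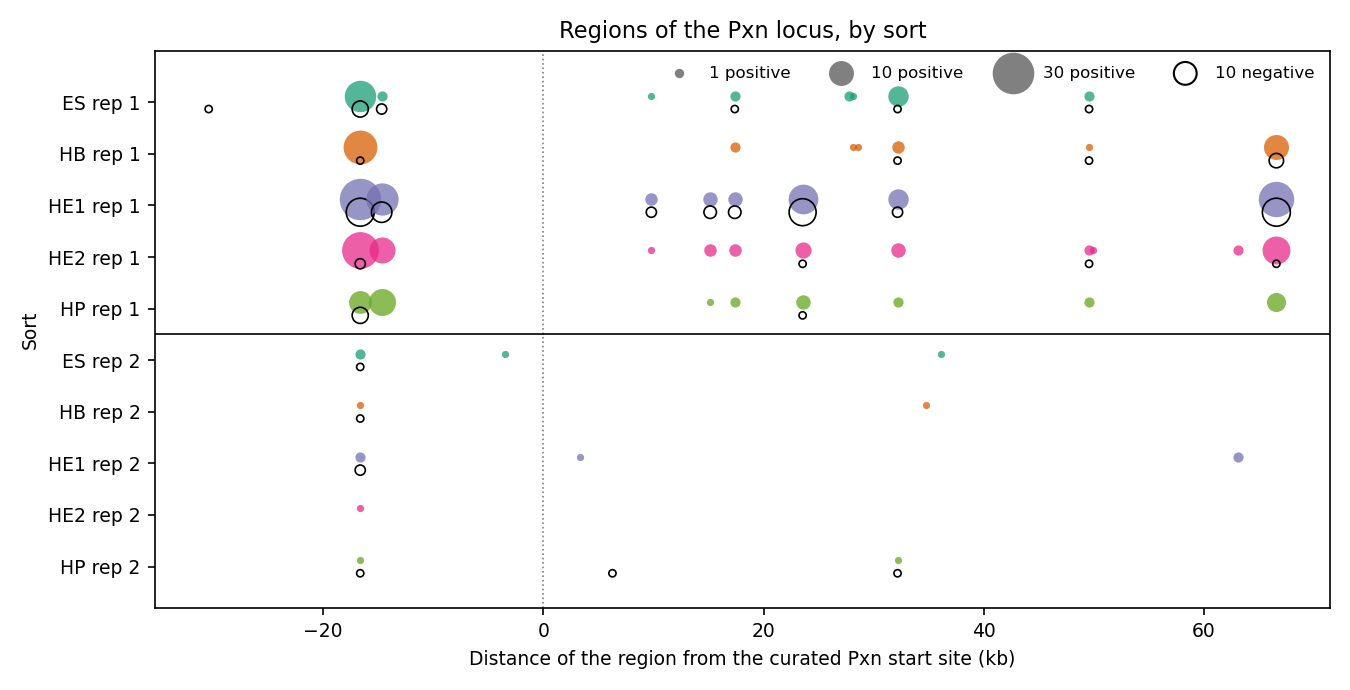
Regions of the Pxn locus by distance from the curated start of Pxn in kb (x axis) for each sort (y axis). The area of a filled circle stands for the number of positive fragments and that of an open black circle for the number of negative fragments. The upstream cluster recurs in every sort, with 10 to 33 positive fragments in replicate 1 and 1 or 2 in replicate 2.

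**Figure D3:**
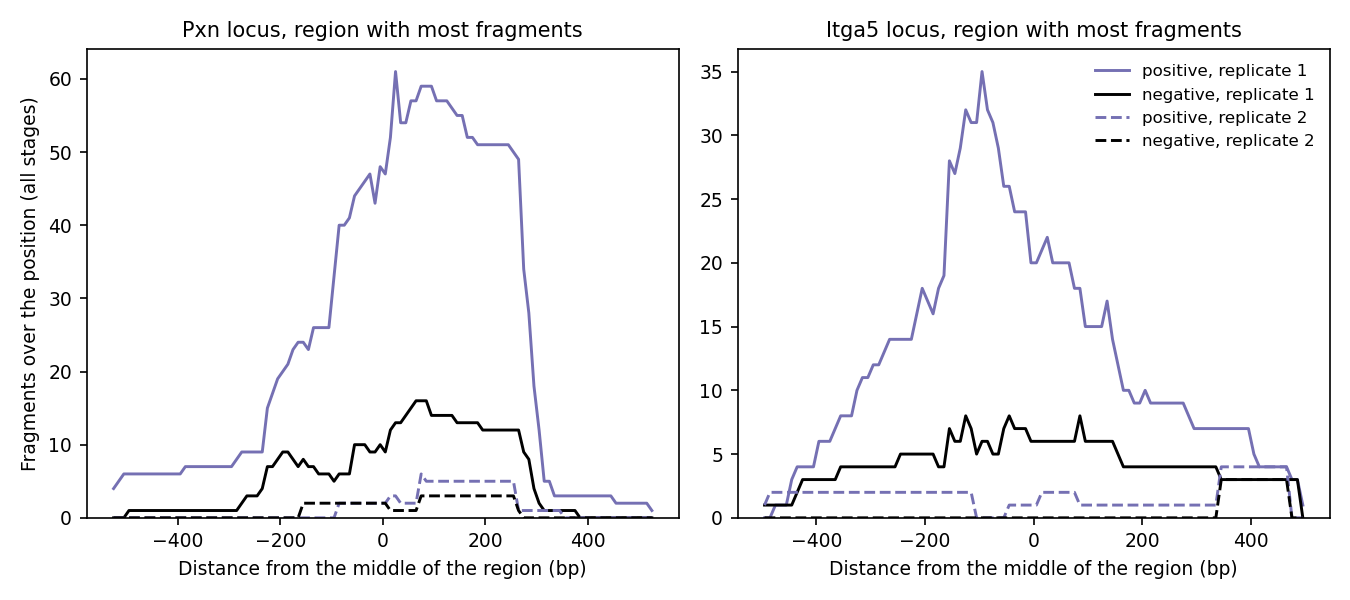
Number of fragments over each position (y axis, all stages) by distance in bp from the middle of the region (x axis), for the region with most fragments at the Pxn and the Itga5 locus. Positive fragments are in purple, negative ones in black, replicate 1 in solid and replicate 2 in dashed lines. Positive and negative fragments of replicate 1 cover the same part of each region, and those of replicate 2 are few.

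The balance of positive and negative fragments at the Pxn locus had the same sign in both replicates at 4 of the 5 stages. In replicate 1 the negative values from ES to HP were 10.6, 8.31, 15.0, 5.93 and 7.09 per 10000. The positive minus negative value was therefore 2.72, 2.47, -3.90, 5.03 and 3.49. In replicate 2 it was 0.88, -1.63, -5.78, 2.88 and 1.83. HE1 was the only stage below 0 in both replicates, and ES, HE2 and HP were above 0 in both. The stages accounted for 85.6% of the variance of this value between sorts (exact permutation test, p = 0.0434, adjusted p = 1). Unadjusted, 2.88% of the 14082 loci passed, and Pxn was 1 of the 10 loci to do so. The value rested on few negative fragments outside HE1 replicate 1, which held 62 of the 98, and on 2 negative and 5 positive fragments in HE1 replicate 2. Without HE1 replicate 1 p was 0.105, and without HE1 replicate 2 it was 0.158. Without fragments found in both the Negative and a positive gate of a sort it was 0.0180. Over the whole experiment the mean difference was 0.80 ± 3.47 (SD, n = 10 sorts; exact permutation test, p = 0.710, adjusted p = 1).

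Zyx encodes zyxin, a LIM-domain protein of focal adhesions and actin stress fibres. Its locus held 44 fragments in 4 regions, all from replicate 1. The positive value was 0 at ES and 0.257, 1.86, 1.32 and 1.01 from HB to HP. The value of 0 at ES, from 27717 positive fragments, allows up to 1.08, so HE1 lay above that limit and HP below it. All 5 sorts of replicate 2 were at 0. In that case the exact permutation test of stages gives p = 1 whatever the values of replicate 1, so it could not decide on stage differences here. Its largest region (chr6:42376106-42376514), in an intron of the long noncoding RNA 2010310C07Rik, had 11 positive fragments at HE1, 4 at HE2 and none elsewhere.

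The 3 integrin loci ranged from 22 to 182 fragments. Itga5 encodes the alpha chain that pairs with the beta 1 chain to bind fibronectin. Its locus held 182 fragments in 11 regions, of which 89 lay in 1 region (chr15:103323235-103324225) in an intron of the neighbouring zinc finger gene Zfp385a. In replicate 1 the locus took 3.25, 4.36, 5.30, 5.11 and 3.28 of 10000 positive fragments from ES to HP. In replicate 2 it took 1.11, 0.819, 2.30, 8.64 and 1.92, from 1, 1, 8, 3 and 1 fragments. The replicates overlapped and differed in order, and the high HE2 value of replicate 2 rested on 3 fragments and equalled the limit for a count of 0 there. The stage test gave p = 0.275 (exact permutation test, adjusted p = 1). The Zfp385a intron region had positive fragments in 9 of the 10 sorts, 67 in all against 67.0 expected. The remaining larger regions of the locus were an Itga5 intron region without ES or HB fragments (chr15:103358091-103359037) and an intergenic region at -16218 bp (chr15:103382638-103383686) with 5 positive fragments each at ES and HB.

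Itgb1 encodes the beta 1 chain that most integrins of this family share. Its locus was the poorest, with 22 fragments in 8 regions and at most 9 in a region. Its positive value was at most 0.785 in replicate 1, at HE1, and at most 1.11 in replicate 2, from 1 fragment at ES, and it was 0 in 4 of the 10 sorts. Itgav encodes the alpha v chain, which binds vitronectin and other matrix proteins. Its locus held 43 fragments, and in replicate 1 the positive value was 0 at ES and HB, followed by 1.86, 1.17 and 0.252 from HE1 to HP. The counts of 0 allow up to 1.08 at ES and 0.770 at HB. In replicate 2 only 1 positive fragment was found, at HE1. The Itgav locus had no fragment of either kind at ES or HB, in either replicate, and its stage test gave p = 0.238 (exact permutation test, adjusted p = 1). The region with most fragments (18; chr2:83744312-83744819) lies in an Itgav intron and overlaps the pseudogene Dnmt3l-ps1, with 10 positive fragments at HE1 and 4 at HE2.

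Ptk2 encodes focal adhesion kinase, which integrin engagement activates. Its locus, with the longest gene body of the 10 (218719 bp), held 118 fragments, of which 116 came from replicate 1. The positive values in replicate 1 from ES to HP were 4.33, 1.80, 3.14, 3.65 and 1.76. The negative value was 2.90, 9.49, 2.66, 8.30 and 1.18. At HB and HE2 the locus was therefore better represented among negative fragments in replicate 1, with 8 and 7 negative fragments, while replicate 2 had no negative fragment at any stage. The mean difference was -0.87 ± 2.92 (SD, n = 10 sorts; exact permutation test, p = 0.529, adjusted p = 1). All 3 larger regions of the locus lay between curated genes. One (chr15:73186553-73187273) lies at -1987 bp from the curated start of Ago2, which encodes an Argonaute protein. The others lie at -11936 bp (chr15:73434907-73435425) and -23836 bp (chr15:73446823-73447427) from that of Ptk2.

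Among the proteins that link integrins to actin, Tln1 encodes talin, which binds integrin tails directly, and Vcl encodes vinculin, which binds talin. The Tln1 locus held 59 fragments, with positive values of 0 to 1.61 in replicate 1 and 0 to 5.76 in replicate 2. Its largest region (chr4:43557961-43559220, 3747 bp downstream of the Tln1 start) had 19 positive fragments against 23.3 expected. The ratio was 0.815 (Cochran-Mantel-Haenszel test on fragments, treated as independent, n = 10 sorts as strata, p = 0.0891, adjusted p = 1). The Vcl locus held 84 fragments, with positive values of 0.257 to 2.52 in replicate 1 and 0 to 3.73 in replicate 2. More than 1 in 2 of them (49) lay in 1 region at the last exon of Vcl (chr14:21031765-21032613). A further Vcl intron region (chr14:20954793-20955249) had 7 positive fragments, all from the Low gate of HE1 replicate 2.

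The alpha-actinins crosslink actin filaments, and Actn1 and Actn4 encode the non-muscle forms. Actn4 held 149 fragments in 13 regions. In replicate 1 its positive value was 0.722 at ES and 0.770 at HB, then 5.00 at HE1, 3.65 at HE2 and 3.78 at HP. In replicate 2 it was 2.22, 4.10, 1.15, 5.76 and 1.92, from 2, 5, 4, 2 and 1 fragments. The low ES and HB values of replicate 1 did not recur in replicate 2, where HE1 was lowest, and the stage test gave p = 0.596 (exact permutation test, adjusted p = 1). An intron region (chr7:28911470-28912187) had 20, 11 and 4 positive fragments and a region at an Actn4 exon (chr7:28894937-28895641) had 11, 7 and 5 at HE1, HE2 and HP of replicate 1, and neither had a fragment at ES, HB or in replicate 2. These counts were not scaled, and the sorts held 101943, 68427 and 39671 positive fragments.

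Actn1 was the locus with the largest difference between positive and negative fragments among the 10. In replicate 1 its positive values from ES to HP were 5.41, 6.16, 2.45, 3.95 and 3.78. Its negative value was 1.93, 4.75, 1.93, 1.19 and 3.55. In replicate 2 the positive value was 0, 1.64, 2.59, 5.76 and 3.84, from 0, 2, 9, 2 and 2 fragments, and no negative fragment was found. The positive value was higher in 9 of 10 sorts and lower in none. In replicate 2 the counts of 0 allow negative values of up to 2.01 at HP and 9.82 to 11.0 at the other stages, so that only the HP difference of that replicate exceeded its limit. That difference rested on 2 positive fragments, and the limit for a count of 0 positive fragments in that sort was higher, at 5.76. The mean was 3.56 among positive and 1.33 among negative fragments, a difference of 2.22 ± 1.82 (SD, n = 10 sorts; exact permutation test, p = 0.0265, adjusted p = 1). With the replicate as a block, p was 0.00391 and the adjusted p 0.707. In replicate 1 alone, p was 0.0625, the smallest that 5 sorts allow. The Cochran-Mantel-Haenszel test on fragments, treated as independent, gave an observed over expected ratio of 1.10 (n = 10 sorts as strata, p = 0.0260, adjusted p = 1). Its 2 larger regions, in an Actn1 exon near the end of the gene (chr12:80168165-80168616) and at -10811 bp (chr12:80270771-80271330), had ratios of 1.01 and 1.09. The other 19 regions of the locus had at most 16 fragments each and together 68 positive and 6 negative fragments, against 59.2 positive ones expected. Of the 21 Actn1 regions, 15 had no negative fragment.

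**Figure D4:**
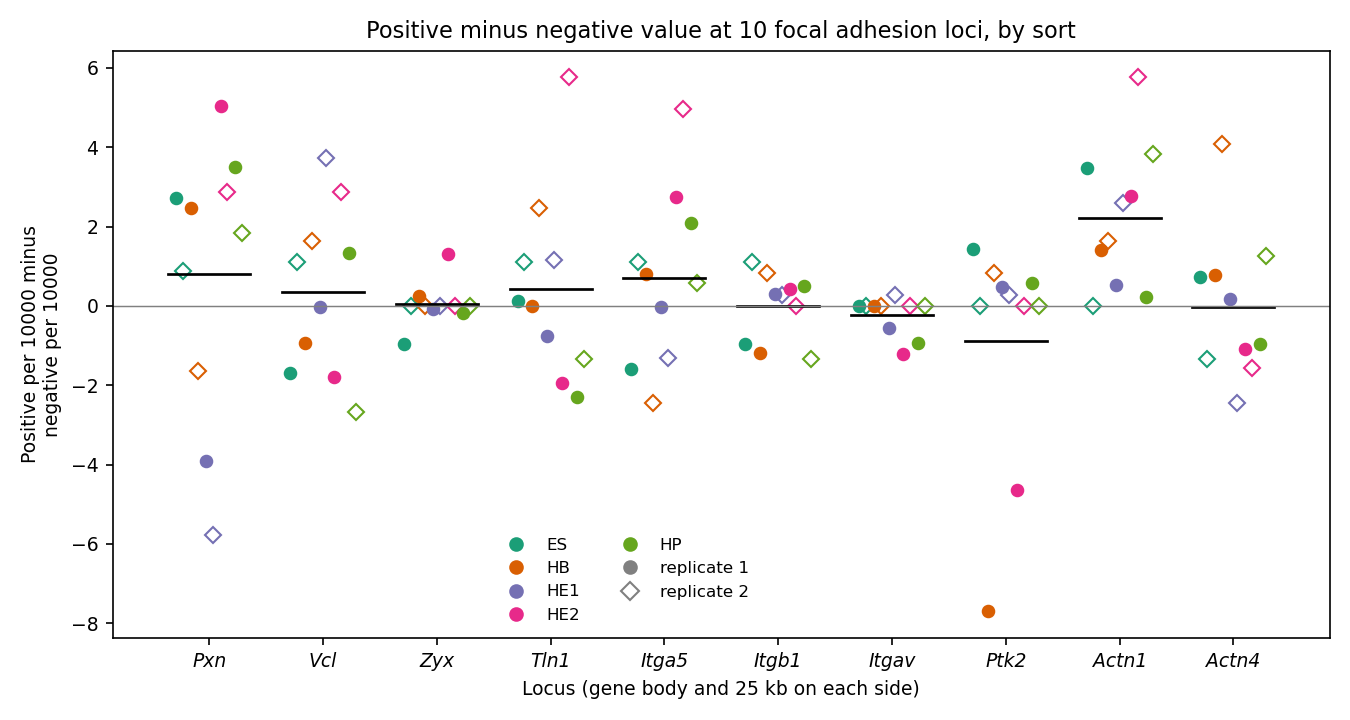
Positive minus negative fragments per 10000 (y axis) at each locus (x axis) in the 10 sorts. Colours stand for stages, filled circles for replicate 1, open diamonds for replicate 2 and black lines for the mean. All points of Actn1 lie at or above 0, the 2 HE1 points of Pxn are its lowest (-3.90 and -5.78), and the means of the 10 loci run from -0.87 at Ptk2 to 2.22 at Actn1.

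Across the 10 loci 958 positive and 281 negative fragments were counted, so that 77.3% were positive against 76.8% of all fragments. After adjustment the exact permutation test called 0 of the 10 loci, as it called 0 of all 14082 (0%). Unadjusted, Actn1 alone passed of the 10, against 4.06% of all loci. The lowest adjusted p over all loci was 0.604, and the smallest p that exchanging labels within the stages can give is 0.000257. The Cochran-Mantel-Haenszel test, which treats fragments as independent, called 14 loci of the 14082 and none of the 10. The mean difference was above 0 at 6 of the 10 loci, with a median of 0.20, and above 0 at 53.4% of all loci, with a median of 0.042. For differences in positive fragments between stages, the exact permutation test called 0 loci after adjustment and none of the 10 unadjusted, against 1.11% of all. The smallest p that this test can give is 0.00106, and the same holds for stage differences in the positive minus negative value. Over 14082 loci, a call after adjustment would need many loci at that limit together. The adjusted p of the stage tests therefore cannot show that a locus lacks stage differences. Fewer active fragments and shallower sampling of a library cannot be told apart in such counts.

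Among the larger regions positive fragments were close to the number expected from the gates. Positive over expected fragments ranged from 0.815 to 1.15 in the 19 regions with at least 20 fragments, with a median of 1.00, and the median of the 5742 was 0.999. The Cochran-Mantel-Haenszel test called 0 of the 19 after adjustment, against 0.209% of all (12 regions, 1 with more and 11 with fewer positive fragments than expected), and 0 unadjusted, against 3.52%. The lowest p was 0.0703, in the Pxn intron region 23548 bp downstream of the start, where 26 positive fragments were seen against 31.5 expected (ratio 0.825) and 14 of its 16 negative fragments came from HE1 replicate 1. The highest ratio, 1.15, was that of the second Pxn intron region (26 positive fragments against 22.7 expected).

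Over the stages, 5 of the 19 regions (26.3%) had no fragment of either kind at ES or HB, and 11.7% of the 5742 had none. These were the first Pxn intron region, the largest Zyx region, the Itga5 intron region and the Actn4 exon and intron regions. Positive fragments at all 5 stages were found for 8 of the 19 (42.1%) and for 58.0% of the 5742. No fragment of replicate 2 was found in 10 of the 19 (52.6%), against 42.4%. These shares are descriptions of regions that share libraries, and the part of sort size in them was not tested. The fragment minimum for a larger region was counted over all sorts, of which HE1 replicate 1 was the largest. In that sort the 5 regions without ES or HB fragments, in the order named, had 17, 11, 9, 11 and 20 positive fragments. Their negative fragments there numbered 14, 6, 6, 4 and 6. How far the minimum favoured regions with HE1 fragments was not tested. HE1 of replicate 1 held 101943 positive fragments, ES 27717, HB 38953 and HP 39671, and HP of replicate 1 had positive fragments in 4 of the 5 regions. Of all 113 regions, 104 (92.0%) had a positive fragment and 15 (13.3%) had fragments of both replicates, against 84.0% and 9.28% in the genome. Regions of 1 fragment, which cannot hold both replicates, made up 36.3% of the 113 and 55.0% of those in the genome. The part of this in both contrasts was not tested. By their centre 74 of the 113 lay in introns, 28 between genes and 11 in exons of curated transcripts, and 0 lay within 1500 bp of a curated start. Predicted starts, such as those of Sirt4 and Pxn, were not counted. The methods describe a split of fragments at 1.5 kb from start sites. Whether these lists had passed through it is not stated, so the count of 0 cannot show a lack of activity near starts.

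**Figure D5:**
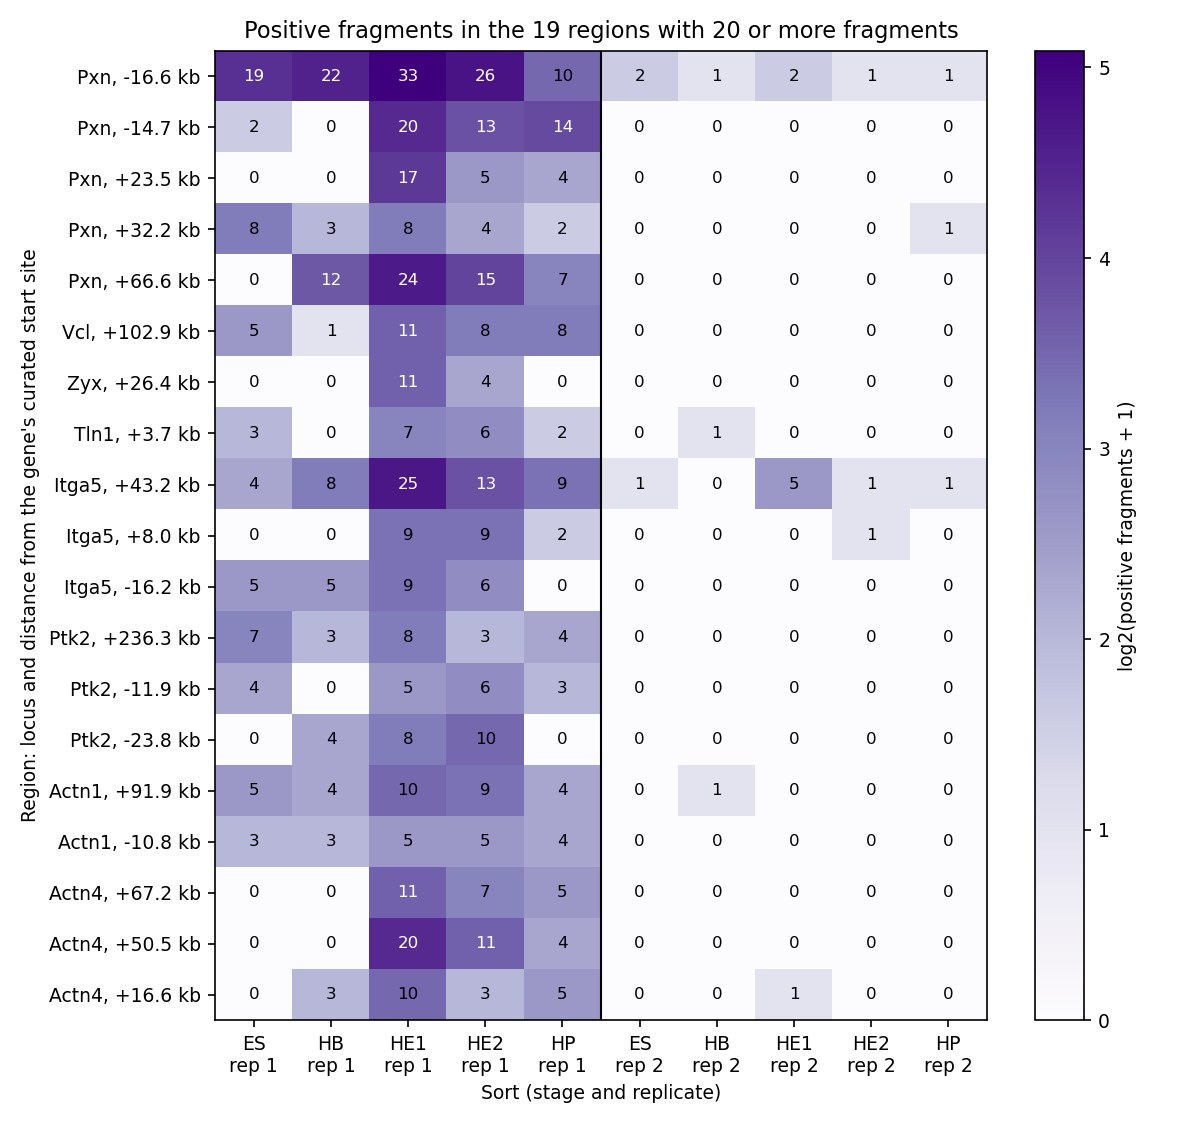
Positive fragments in the 19 regions with at least 20 fragments (rows, named by locus and distance in kb from the curated start of the gene) in each sort (columns, replicate 1 left of the line). Numbers are counts and shading is log2(count + 1). The HE1 column of replicate 1 is above 0 in every row, and the replicate 2 columns are mostly 0 outside the first Pxn row.

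A list of 46 further focal adhesion genes, which holds among others further integrins, the parvins, kindlins and tensins, Ilk, Src and other kinases, and filamins, was tested in the same way. Of the 46, 32 had at least 20 fragments, with a median of 87. None of the 32 passed the exact permutation test of positive against negative fragments, adjusted or unadjusted (4.06% of all loci passed unadjusted), and the difference was above 0 at 16 and below 0 at 16. For the stage dependence of the difference, Arhgef7, which encodes a guanine nucleotide exchange factor of the GIT complex, passed unadjusted (p = 0.0190, exact permutation test), against 2.88% of all loci.

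Over the 40 libraries the fragments per 10000 at Pxn were most like those at Mtag2 (Spearman correlation 0.80), Nemf (0.79) and Mir193a (0.78), among 2801 loci over 100 kb away with at least 100 fragments, whose median correlation was 0.49. Within the 20 libraries of each replicate the correlation was 0.43 and 0.51 for Mtag2, 0.40 and -0.10 for Nemf, and 0.23 and 0.43 for Mir193a, lower than over all 40. The points share sequencing depth and the difference between the replicates.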

How the data were processed

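The values the authors deposited are other than counts: each library is a list of genomic start and end positions of unique fragments in bp, with no read number. As the labels and the study's methods describe, read pairs were trimmed with Trim Galore, aligned to mm10 with bowtie2, filtered with SAMtools for proper pairs of high mapping quality and reduced to unique fragments. Removal of background fragments, restriction to open chromatin and a HOMER split at 1.5 kb from start sites are also described. Which of them the deposited lists had passed through is not stated, and the tool versions used on the reporter libraries are not stated.

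Libraries were grouped by their titles into 20 groups of 2. Nothing in the labels says what a replicate is, so p-values of the permutation tests measure the spread between these libraries. Gene bodies, exons and start sites came from RefSeq on GRCm38, the curated starts from curated transcripts. Positive and negative values were compared over 10 sorts by exchanging labels within a stage, and stages by all 945 pairings of sorts, over every gene locus with at least 20 fragments. Regions were tested with the Cochran-Mantel-Haenszel test, with sorts as strata and a continuity correction. It treats fragments as independent, so its p-values do not measure the spread between libraries. P-values were two-sided and adjusted by the Benjamini-Hochberg method. Same-numbered libraries deviated together: across loci the deviations of positive and negative values correlated at 0.404 to 0.572 in the 5 stages, and those of positive values between stages at 0.408 to 0.598, so the replicate number was also used as a block. Python 3.11.15, numpy 2.4.6, scipy 1.17.1 and pandas 2.3.3 were used, and the tests were tested on simulated data. The 10 genes, the list of further genes, the motifs and the tests were chosen with earlier results of these data known. All 10 genes, every region with at least 20 fragments and the largest region of a locus were eligible to be named. The further Vcl intron region was named after its values were seen.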

Additional observations from a re-analysis of the deposited data

How the results depend on the processing

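No call at the 10 loci or their regions changed under any setting tried. For positive against negative fragments at the loci, 156 of 185 values kept their direction and 29 turned, all without passing the test, and the lowest adjusted p was 0.606 (Actn1, without fragments shared by the Negative and a positive gate of a sort). Of 128 values for regions 109 kept their direction and 19 turned (lowest adjusted p 0.897). All 135 and 144 stage values stayed on their side of the threshold. With a gene body and 50 kb the difference turned to 0.17 at Actn4, -0.097 at Itga5, 0.26 at Itgb1 and -0.031 at Zyx, and with the gene body alone to -0.47 at Tln1. With positive as High alone it turned to -0.59 at Vcl and -0.053 at Zyx, and as Medium or High to 0.31 at Actn4 and -0.32 at Vcl. Without shared fragments it turned to 0.57 at Actn4. The Cochran-Mantel-Haenszel test put the observed over expected ratio at 1.00 at Actn4, 1.00 at Itgb1, 0.994 at Pxn, 0.906 at Tln1 and 0.978 at Vcl, each on the other side of 1 from the sign of the mean difference. For the largest regions, the ratio turned at Itga5 to 0.972 without shared fragments, 0.999 with fragments within 5 bp collapsed, 0.995 for High alone and 0.978 for Medium or High. It turned at Ptk2 to 1.05 for High alone, and at Pxn to 0.999 with collapsing and 1.00 for High alone. The cause was not tested.

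The number of loci called over the genome was 0 except for 14 with the Cochran-Mantel-Haenszel test. The number of regions called (12) became 5 with a minimum of 50 fragments, 0 with collapsing, 2 for High alone and 3 for Medium or High, and 30 with no replicate block (the replicates of a stage pooled). Leaving out a replicate or a sort gave 5 to 19 regions, with 5 without replicate 2 or without HE1 replicate 2, 7 without ES or HB replicate 2 and 19 without HP replicate 2. Leaving these out gave 0 loci in each test.

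Leaving out a replicate or a sort gave differences of 1.68 to 2.47 at Actn1, -0.499 to 0.229 at Actn4, 0.219 to 1.04 at Itga5, -0.537 to -0.133 at Itgav, -0.127 to 0.145 at Itgb1, -1.97 to -0.117 at Ptk2, -0.363 to 1.96 at Pxn, -0.977 to 0.727 at Tln1, -0.624 to 1.34 at Vcl and -0.106 to 0.148 at Zyx. The ratio in the largest region of each locus ran 0.972 to 1.08 at Actn1, 0.865 to 1.03 at Actn4, 0.981 to 1.02 at Itga5, 0.894 to 0.970 at Ptk2, 0.974 to 1.03 at Pxn, 0.761 to 0.886 at Tln1, 0.854 to 0.929 at Vcl and stayed at 0.958 at Zyx. A whole replicate could not be left out of the stage tests, which would leave 1 sort a stage, and at loci or regions that then fell below 20 fragments.

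The replicate numbers pair the libraries, and the replicate block changed no call. In the stage tests of positive fragments it put the share of variance at 13.2% at Itgb1 to 78.7% at Pxn. With the block the exact permutation test of stages for the Pxn value (positive minus negative fragments) gave 97.8% of the variance and p = 0.00833, the smallest that its 120 arrangements allow, and Actn1 gave the p of 0.00391 stated above. Depth limits what could be seen, since most regions held no fragment of replicate 2.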

Other observations

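The gates in which positive fragments of the 10 loci were found followed those of the libraries. In replicate 1, 22.9% of the positive fragments of the loci were from the Low gate, 43.3% from the Medium gate and 33.8% from the High gate, against 22.7%, 41.8% and 35.4% of all. In replicate 2 the shares were 65.7%, 15.7% and 18.6%, against 61.4%, 18.5% and 20.1%. Single regions differed more, on few fragments. The second Pxn intron region had 14 fragments in the High, 9 in the Medium and 4 in the Low gate, and the intergenic Actn1 region had 2, 13 and 5. At Itga5 the High gate held 5.44 ± 5.32 of 10000 fragments and the Medium gate 2.77 ± 2.46 (SD, n = 10 libraries each), a spread wider than the difference.

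Fragments of the 10 loci had a median length of 178 bp in replicate 1 and 194 bp in replicate 2, against 161 and 236 bp over the genome. Of the 989 different fragments 197 (19.9%) were listed in more than 1 library (67534 of 354627 over the genome), 88 (8.90%) at more than 1 stage and 8 (0.809%) in both replicates, against 10.4% at more than 1 stage and 0.956% in both replicates over the genome.

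Some small regions held fragments of replicate 2 alone, and these were named after their values were seen. A region in the Tln1 locus (chr4:43517797-43518076) lay in an intron of the neighbouring gene Tpm2, 44647 bp from the curated start of Tln1. It had 1, 1, 4 and 2 positive fragments from ES to HE2 of replicate 2. An intron region of Actn4 (chr7:28930905-28930975) had 1 positive fragment at every stage of replicate 2. The Actn4 region consisted of 1 fragment of 71 bp that was listed 13 times, in 3 Negative and 10 positive gates, and the Tln1 region of 4 different fragments listed 12 times. Neither had a positive fragment in replicate 1, although its sorts held more positive fragments at every stage. In the Low gate of HE1, however, replicate 2 had the larger library, with 31915 fragments against 15458.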
